A study of Mus musculus with 3 samples.

Results

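ATP-binding cassette (ABC) genes were taken as every gene whose mouse symbol begins with Abc, a subfamily letter from a to g and a digit. The rule found 50 genes among the 37620 gene identifiers of the deposited tables. By subfamily they were 16 ABCA, 10 ABCB, 10 ABCC, 4 ABCD, 1 ABCE, 3 ABCF and 6 ABCG genes. Of these, 6 encode the transporters known from the bile canaliculus of hepatocytes (Abcb11, Abcb4, Abcc2, Abcg2, Abcg5 and Abcg8), and 44 are the other members. Tap1, Tap2 and Cftr also encode ABC proteins but carry other symbols and were not counted as members.

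The study compared TUDCA (tauroursodeoxycholic acid, a taurine-conjugated bile acid) with its solvent DMSO in primary hepatocytes from C57BL/6 mice. There were 2 TUDCA libraries, labelled 100 mM for 24 h, and 1 DMSO library, for which the labels give no time. All cells were isolated by collagenase perfusion and cultured on gelatin in medium with serum and insulin, at passage 1. The series describes 2 independent experiments but does not tie libraries to them, so p-values measure only the spread between these libraries, which may be technical. Time in culture and treatment cannot be told apart where the DMSO time is not given. The dose is printed as labelled, and an error of its unit is possible.

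ABC proteins bind and hydrolyse ATP, and most of them use it to move lipids, bile salts, conjugated drugs or metals across membranes. In hepatocytes, the canalicular members export bile salts, phosphatidylcholine, sterols and organic anion conjugates into bile, while Abcc3 and Abcc4 export conjugates across the basolateral membrane towards blood. ABCE and ABCF proteins have the ATP-binding units but no membrane part, and act on ribosomes and translation.

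Hepatocyte identity was checked first. All 10 hepatocyte markers were present, and their summed level was 12041 and 11095 RPKM with TUDCA and 10551 RPKM in DMSO. RPKM, the deposited unit, is the number of reads scaled to gene length and to the reads of the library, so levels of genes may be compared per length. Alb stood at 7177 and 6111 RPKM with TUDCA and 5771 RPKM in DMSO, whereas the urea cycle gene Cps1 had 5.79 and 6.08 RPKM with TUDCA and only 2.62 RPKM in DMSO. Library totals were 9757547 and 10575699 reads for TUDCA and 10774289 reads for DMSO. The whole reads given below are the smallest that fit the RPKM values, so a gene holds at least that number.

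Summed over all 50 members the level was 1744 and 1577 RPKM with TUDCA and 1360 RPKM in DMSO, a ratio of 1.22 for the TUDCA mean. Most of that difference lay in Abcc3, Abcc2 and Abcb4. Without these 3 the other 47 members summed to 816.2 and 781.3 RPKM with TUDCA and 776.9 RPKM in DMSO. The ABCC subfamily made up the largest part, with 877.7 and 737.9 RPKM under TUDCA and 604.7 RPKM in DMSO. ABCF came next, with 360.3 and 386.1 RPKM under TUDCA and 409.8 RPKM in DMSO. Both TUDCA libraries therefore lay above DMSO for ABCC and below it for ABCF. ABCB had 193 and 206 RPKM with TUDCA and 120.0 RPKM in DMSO, and its share of all ABC transcripts was 11.1% and 13.1% with TUDCA and 8.83% in DMSO. Without Abcb4 the ABCB sum was nearly level, at 89.5 and 89.6 RPKM with TUDCA and 88.4 RPKM in DMSO. The ABCA sum was 122.0 and 99.9 RPKM with TUDCA and 81.1 RPKM in DMSO. ABCD, ABCE and ABCG each stayed under 100 RPKM in every library. With 1 DMSO library these sums are descriptions without a test.

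**Figure D1:**
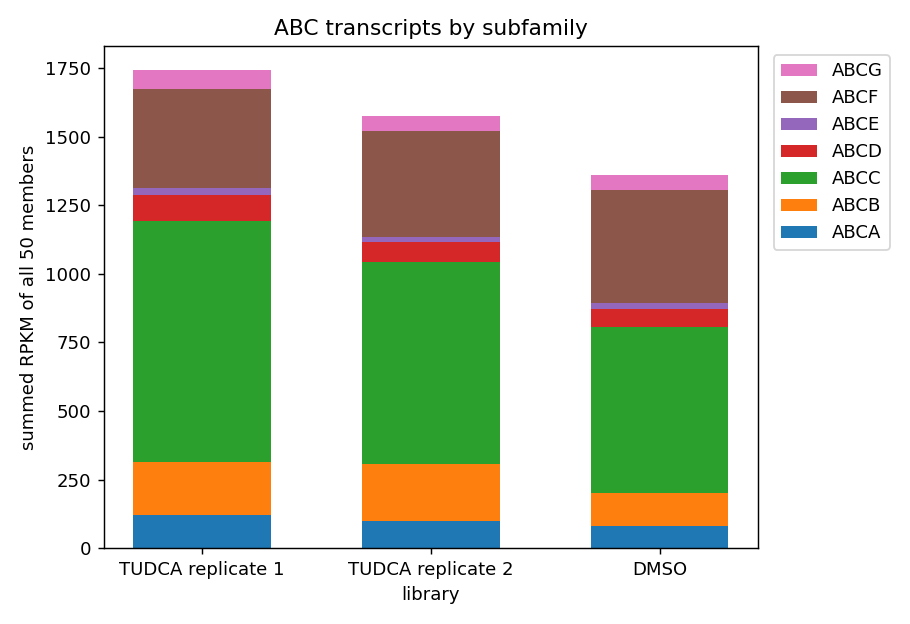
Stacked bars give the summed RPKM of all 50 ABC members in each library, coloured by subfamily. The bars reach 1744 and 1577 RPKM in the TUDCA libraries and 1360 RPKM in DMSO, and ABCC and ABCF make up most of each bar.

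Expression spanned a wide range. The highest member, Abcc3, averaged 459.8 RPKM over the 3 libraries, and 35 members had a mean of at least 1 RPKM, the minimum for testing. The lowest of these, Abcb9 (a lysosomal peptide transporter), averaged 1.03 RPKM. Of the 15 members below the minimum, the highest, Abca8a, averaged 0.564 RPKM, and 5 (Abca12, Abca13, Abca15, Abca16 and Abcb5) had no read in any library. With the exon lengths of GENCODE M21, a count of 0 allows up to 0.0141 to 0.0702 RPKM for these 5 genes (3 reads per library, covering counting error only). The 3 highest members were Abcc3, Abcc2 and Abcf1 in each library. Abcf1 stood above Abcc2 in TUDCA replicate 2 and in DMSO, and below it in TUDCA replicate 1.

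**Figure D2:**
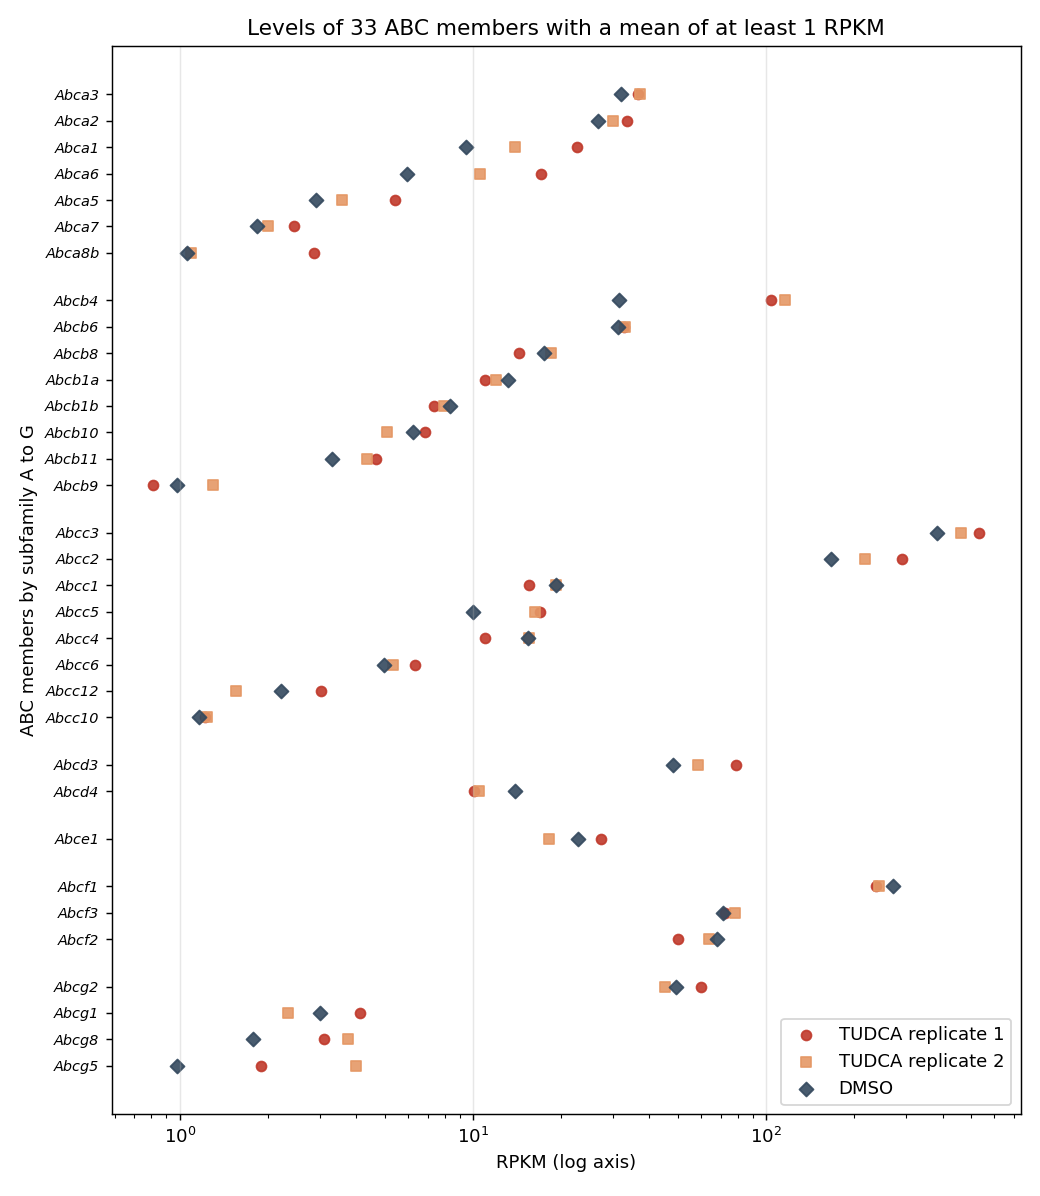
Points give the RPKM of 33 of the 35 ABC members with a mean of at least 1 RPKM in the TUDCA libraries and in DMSO, on a log axis and grouped by subfamily. Abcb4 is the member whose TUDCA points, at 103.9 and 116.5 RPKM, lie farthest from its DMSO point at 31.6 RPKM among members above 10 RPKM.

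TUDCA was compared with DMSO on log2(RPKM + 1) with limma, a linear model fitted to all 11300 genes that passed the minimum, with Benjamini-Hochberg adjustment over all of them. The log2 differences of low genes are understated on this scale. At an adjusted p under 0.05, 3 of the 35 tested members were called higher with TUDCA, against a background of 1.77% of all genes tested. The 3 were Abcb4 (canalicular phospholipid export), Abca6 and Abca1 (cholesterol efflux). No member was called lower, against 0.876% of all genes, and no member had an unadjusted limma p under 0.05 in that direction. Without a TUDCA call were 32 members, among them the bile salt pump Abcb11. An unadjusted limma p under 0.05 was reached by 8 members, Abcg5 among them. No share over all genes is given at that level, so the count is a description only. Abcg5 passed the minimum of 1 RPKM through its TUDCA values alone, and it also stands in the counts of members above DMSO that follow. The median log2 difference of the 35 members was 0.08, with 23 above 0 and 12 below, beside 0.04 for all genes tested. Both TUDCA libraries lay above DMSO for 19 of the 35 members, where the background was 40.5% of genes, and both lay below it for 7, where the background was 30.4%. The number above was 19 after rescaling to TPM and 15 with either quantile normalization or median centring. This check was added after the data were seen. The background of 40.5% is for the RPKM scale, and no such share is given for these scalings. The median of all genes was 0.047 with TPM, -0.0076 with quantile normalization and -0.035 with median centring.

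These calls rest on a spread that limma pooled over genes of similar level, since the only residual degree of freedom lies between the TUDCA libraries and DMSO is assumed to vary like them. Without the minimum of 1 RPKM limma called none of the members (0 of 19146 genes in all), and at a minimum of 0.3 RPKM only Abcb4 was called, among 26 genes, where 0.0897% of all genes were called higher. In the other fits the share of genes called higher was 1.98% (pseudocount of 0.1), 1.85% (minimum of 5 RPKM), 1.82% (TPM), 1.46% (quantile normalization), 1.35% (median centring), 1.64% (no variance trend), 1.75% (robust estimation), 1.66% (voom on whole reads) and 2.1% (GC and length correction). Abcb4 was called in each of these.

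**Figure D3:**
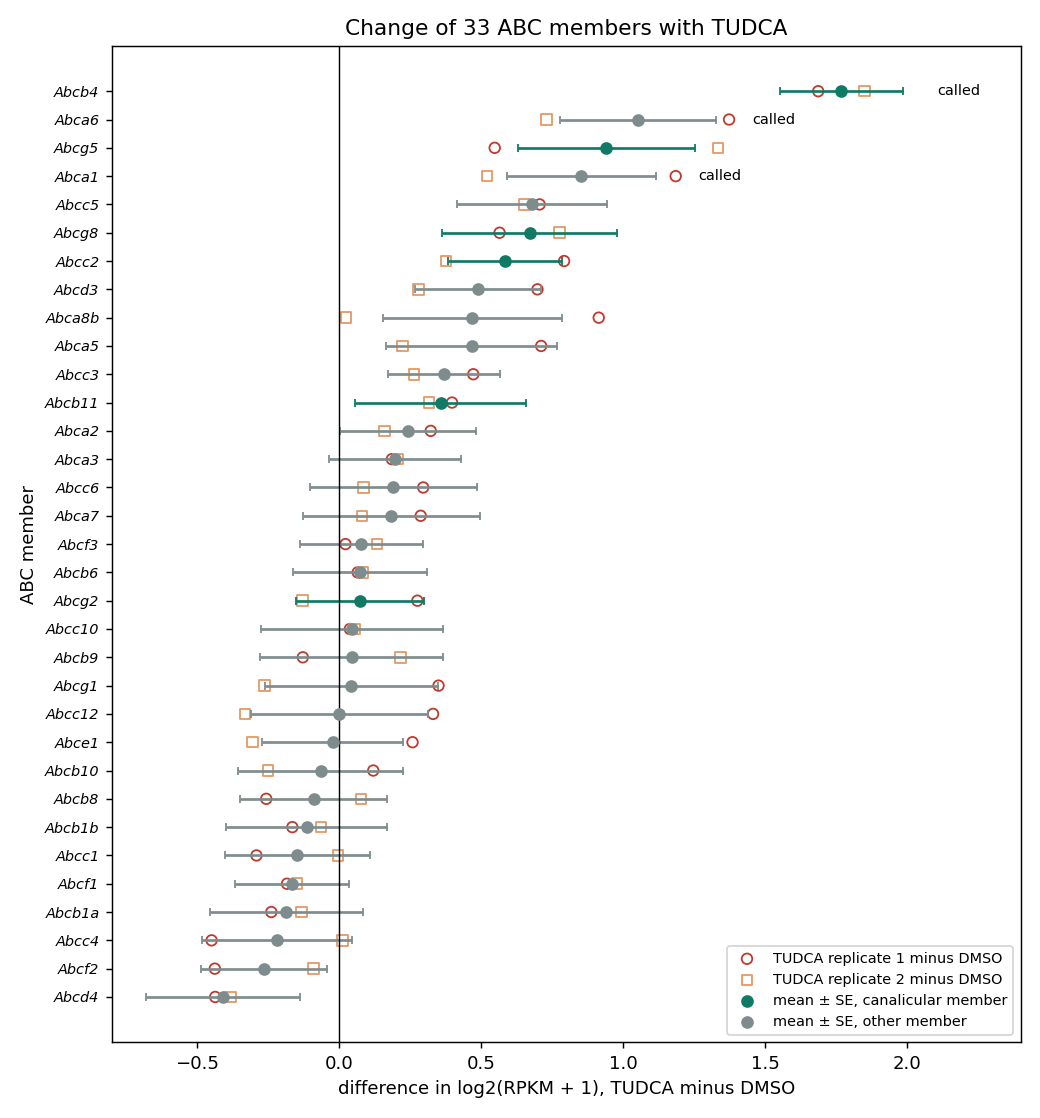
Filled points give the limma difference in log2(RPKM + 1) between TUDCA and DMSO with its SE for 33 of the 35 tested ABC members, and open symbols give each TUDCA library minus DMSO. Abcb4 stands at 1.77 with Abca6 at 1.05 next, and the lowest member is Abcd4 at -0.41.

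Abcb4 (ENSMUSG00000042476) encodes the floppase that hands phosphatidylcholine to bile. It had 103.9 and 116.5 RPKM with TUDCA, from at least 2280 and 2770 reads, and 31.6 RPKM in DMSO, from at least 765 reads. Both TUDCA libraries were above DMSO, by 3.29 and 3.69 times. The TUDCA mean was 110.2 ± 8.9 RPKM (SD, n = 2) and the log2 difference 1.77 ± 0.22 (SE, limma adjusted p = 2.5e-13). It was the one member to differ by at least 1 on the log2 scale in each TUDCA library, a size that 0.77% of all tested genes reached upwards and 0.283% downwards, where no member did. Only 18 of the 11300 genes had a higher log2 difference. By level, Abcb4 was 4th among the 50 members in each TUDCA library and 9th in DMSO. In this bulk RNA, a change in the number of cells that express a gene and a change of RNA per cell cannot be told apart.

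Abcb11 (ENSMUSG00000027048), the bile salt export pump, stood far below Abcb4. Its level was 4.66 and 4.35 RPKM with TUDCA and 3.29 RPKM in DMSO. Both TUDCA libraries were slightly above DMSO, and the log2 difference of 0.36 ± 0.30 (SE) did not pass (limma adjusted p = 0.788). Abcc2 (ENSMUSG00000025194), which exports conjugated bilirubin and glutathione conjugates, was the most abundant canalicular member. It had 290.0 and 217.1 RPKM with TUDCA and 167.1 RPKM in DMSO, so both TUDCA libraries lay above DMSO, replicate 1 farther than replicate 2. Its log2 difference of 0.58 ± 0.20 (SE) did not pass (limma adjusted p = 0.106). With quantile normalization Abcc2 was called higher (limma adjusted p = 0.0457), the only 1 of 12 fits to call it. The limma adjusted p was 0.438 with median centring and 0.435 without the variance trend. Abcg2 (ENSMUSG00000029802), an exporter of urate, drugs and sulphated conjugates, had 60.05 and 45.1 RPKM with TUDCA and 49.4 RPKM in DMSO. DMSO lay between the TUDCA libraries, and the log2 difference was 0.07 ± 0.22 (SE, limma adjusted p = 0.977).

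Abcg5 and Abcg8 encode the partners of the sterol transporter that secretes cholesterol and plant sterols into bile. Abcg5 (ENSMUSG00000040505) had 1.90 and 4.00 RPKM with TUDCA, from at least 14 and 32 reads, and 0.981 RPKM in DMSO, from at least 8 reads. Both TUDCA libraries were above DMSO, replicate 2 far more than replicate 1. The log2 difference of 0.94 ± 0.31 (SE) did not pass (limma adjusted p = 0.0828). From replicate 1 alone it was 0.55 and from replicate 2 alone 1.33. Exons of Abcg5 and Abcg8 overlap by 82 bases on opposite strands, and whether counting used strand is unknown here. Abcg8 (ENSMUSG00000024254) had 3.10 and 3.74 RPKM with TUDCA and 1.77 RPKM in DMSO, a log2 difference of 0.67 ± 0.31 (SE, limma adjusted p = 0.360). Without the variance trend limma called Abcg5 higher (adjusted p = 0.0326). Abcg5 passed the minimum of 1 RPKM through its TUDCA values alone, so this call is no support for a difference.

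Set beside the other members, the canalicular 6 had 1 call higher (Abcb4), none lower and 5 without a call. Their median log2 difference was 0.63 (0.56 and 0.58 in the TUDCA libraries), and 5 of the 6 lay above DMSO in both libraries. Without Abcg5 the median was 0.58, and 4 of 5 lay above. The 29 other members tested had 2 calls higher, none lower and 27 without a call, and 14 of them lay above DMSO in both libraries. Their median was 0.05 (0.19 and 0.05 in the TUDCA libraries), a sign that turned to -0.05 with quantile normalization and to -0.03 with median centring. Among all genes tested 40.5% lay above DMSO in both libraries and 1.77% were called higher, and the other members' share above was 48.3%. Summed, the canalicular members had 464 and 391 RPKM with TUDCA and 254 RPKM in DMSO, or 26.6% and 24.8% of ABC transcripts with TUDCA and 18.7% in DMSO. Both sets compare against the same DMSO library, and no test of the difference between them is given.

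**Figure D4:**
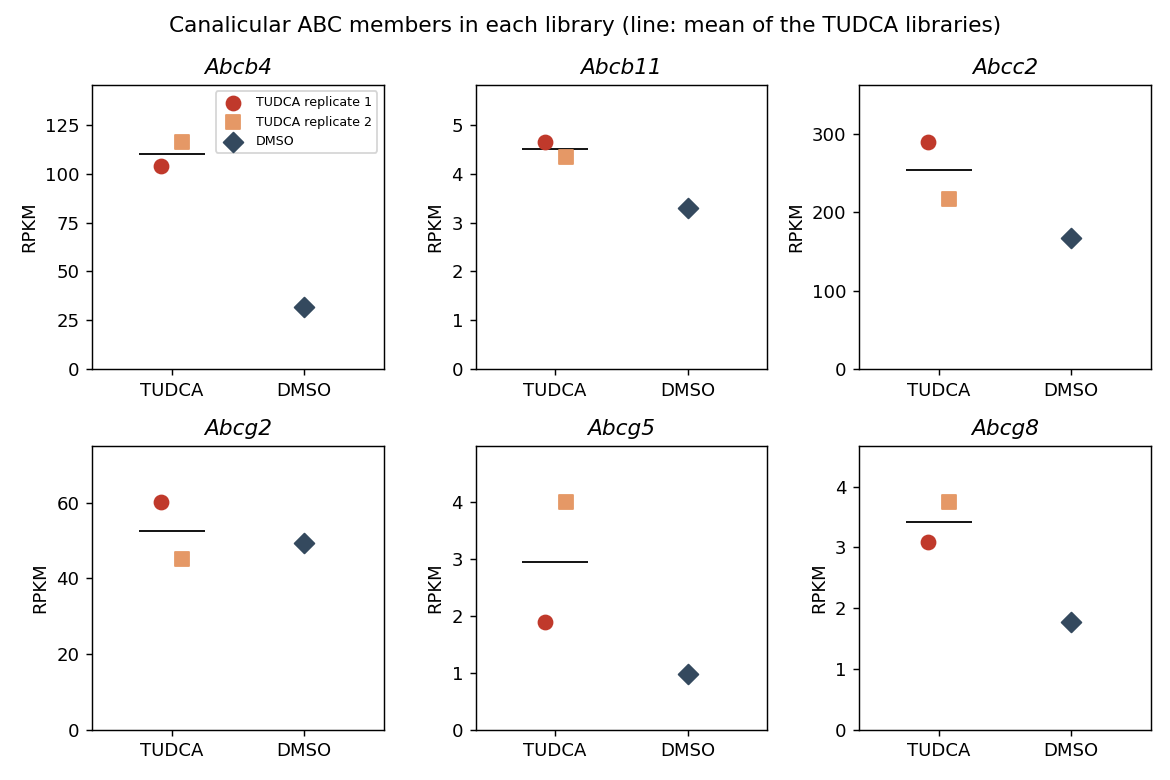
Each panel gives the RPKM of 1 canalicular member in the TUDCA libraries and in DMSO, on an axis that starts at 0, with a line at the TUDCA mean. In all panels except that of Abcg2 the TUDCA points lie above DMSO. For Abcb4 they stand at 103.9 and 116.5 RPKM, close to each other and far above DMSO at 31.6 RPKM, while for Abcg5 replicate 2 stands well above replicate 1.

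Shown are the upstream sequences of Abcb4 and Abca1, the called members with an entry, and the stretch between the starts of Abcg5 and Abcg8. Values of these genes were higher in both TUDCA libraries. That held for 19 of the 35 tested members, so it does not set them apart, and Abcg5 and Abcg8 were not called. The sequences come from RefSeq on build GRCm38.p6. Which build the authors counted on is unknown here. Capitals mark motifs found on either strand.
Abcb4, 250 bases before the start, chr5:8893471-8893720, plus strand: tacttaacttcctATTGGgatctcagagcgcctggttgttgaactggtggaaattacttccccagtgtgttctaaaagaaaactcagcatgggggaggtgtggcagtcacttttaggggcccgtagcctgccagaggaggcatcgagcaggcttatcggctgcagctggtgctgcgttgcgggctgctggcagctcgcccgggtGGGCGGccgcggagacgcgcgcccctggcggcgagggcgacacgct
Abca1, 250 bases before the start, chr4:53159896-53160145, minus strand: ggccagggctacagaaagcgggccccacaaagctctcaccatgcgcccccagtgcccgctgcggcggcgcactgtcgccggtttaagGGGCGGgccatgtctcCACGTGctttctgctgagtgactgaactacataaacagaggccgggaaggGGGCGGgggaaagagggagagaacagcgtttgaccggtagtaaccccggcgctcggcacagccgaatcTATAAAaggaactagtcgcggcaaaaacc
Abcg5 to Abcg8, 109 bases between their starts, chr17:84683012-84683120, plus strand: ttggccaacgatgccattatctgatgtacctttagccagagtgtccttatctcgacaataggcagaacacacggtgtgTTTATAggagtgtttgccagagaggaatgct

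The motifs were searched on both strands. They were the nuclear receptor core, written AGGTCA, its inverted repeat with 1 base between (the form bound by the bile acid receptor) and its direct repeat with 4 bases between (the form bound by the sterol receptors). The GC box was searched as GGGCGG. The CCAAT box was searched by the letters of its name. The E-box was searched as CACGTG. The TATA box was searched as TATAAA. The Abcb4 stretch holds 1 GC box, and 1 CCAAT box on the opposite strand. The Abca1 stretch holds 2 GC boxes, 1 E-box and 1 TATA box, and the stretch between Abcg5 and Abcg8 holds 1 TATA box, on the strand read towards Abcg5. GC boxes stood in 32.7% of 32851 RefSeq windows of 250 bases, CCAAT boxes in 33.85%, E-boxes in 6.02% and TATA boxes in 12.4%. Among windows of 109 bases, 5.90% held a TATA box. The nuclear receptor core was found in 14.0% of windows of 250 bases and in none of the sequences shown. Its inverted and direct repeats stood in 0.00609% and 0.0152% of all windows and in none of the 38 members with an entry. Of those 38, a GC box was found for 17, a CCAAT box for 13, and the nuclear receptor core, the E-box and the TATA box for 5 each. A member counted if any of its windows held the motif, whereas the percentages are of single windows, so they cannot be compared directly. These matches are descriptions of letters in a window.

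All 7 tested ABCA members, a subfamily that mostly moves lipids and sterols, lay above DMSO in both TUDCA libraries, a number that was 5 with quantile normalization and 6 with median centring. Of the 7, 2 were called higher, none lower and 5 had no call. On the RPKM scale the shares over all genes were 40.5% above in both libraries and 1.77% called higher. Each member is set against the same DMSO library. Abca6 (ENSMUSG00000044749) had 17.01 and 10.5 RPKM with TUDCA and 5.95 RPKM in DMSO. Both TUDCA libraries were above DMSO, by 2.86 and 1.77 times. The log2 difference was 1.05 ± 0.27 (SE, limma adjusted p = 0.00776), with 1.37 from replicate 1 alone and 0.73 from replicate 2 alone. Quantile normalization ended this call (limma adjusted p = 0.0617). Abca1 (ENSMUSG00000015243), which loads cholesterol and phospholipid onto apolipoprotein A-I, had 22.7 and 14.0 RPKM with TUDCA and 9.43 RPKM in DMSO. Both TUDCA libraries were above DMSO, replicate 1 farther than replicate 2. Its log2 difference was 0.85 ± 0.26 (SE, limma adjusted p = 0.0460), with 1.19 from replicate 1 alone and 0.52 from replicate 2 alone. The call of Abca1 stood close to the threshold. It ended under quantile normalization (limma adjusted p = 0.164), under median centring (0.0982), when the variance trend was dropped (0.0745) and after the GC and length correction (0.0716).

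The most abundant ABCA members had no call. Abca3, known for packing surfactant lipid in lung, had 36.6 and 37.2 RPKM with TUDCA and 32.1 RPKM in DMSO. Abca2, of endosomal and lysosomal membranes, had 33.6 and 29.9 RPKM with TUDCA and 26.7 RPKM in DMSO. Their log2 differences were 0.20 and 0.24 (limma adjusted p = 0.886 and 0.840). Macrophages also express Abca1. The 8 macrophage and Kupffer cell markers summed to 573 and 643 RPKM with TUDCA and 512 RPKM in DMSO, mostly from Cd14 and Cd68, and none of the 6 tested was called. Clec4f, which defines Kupffer cells, had 3.93 and 4.42 RPKM with TUDCA and 3.50 RPKM in DMSO. The part of such cells in the Abca1 values was not tested.

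ABC genes lie next to each other in 5 runs of adjacent protein-coding genes in the GENCODE M21 annotation, which together hold 15 members. On chromosome 11, Abca8b, Abca8a, Abca9, Abca6 and Abca5 form the longest run, and all 5 lay above DMSO in both TUDCA libraries on the RPKM scale. Of the 5, 3 were tested. Among all genes tested 40.5% lay above DMSO in both libraries on that scale, a share that does not cover Abca8a and Abca9. Abca8b did not lie above in both with quantile normalization or median centring, and that check did not cover Abca8a and Abca9. The summed level of the 5 was 26.3 and 16.0 RPKM with TUDCA and 10.3 RPKM in DMSO. Abca5 had 5.41 and 3.57 RPKM with TUDCA and 2.92 RPKM in DMSO, and Abca8b had 2.88 and 1.09 RPKM with TUDCA and 1.06 RPKM in DMSO. Neither was called (limma adjusted p = 0.656 and 0.676). Abca8a and Abca9 were below the minimum for testing, at no more than 0.721 RPKM in any library. Abca8a rested on at least 17 and 16 reads with TUDCA and 9 in DMSO. For Abca9 these were at least 10 and 8 reads with TUDCA and 1 in DMSO. On the run of chromosome 17 formed by Abcg5 and Abcg8, whose RefSeq starts lie 110 bases apart on opposite strands, both genes also lay above DMSO in both libraries. In the run of Abca17 and Abca3, Abca3 lay above DMSO in both libraries and Abca17, at no more than 0.0252 RPKM, below. No member of the run of Abca14, Abca15 and Abca16 lay above in both.

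Abcb4 shares its run on chromosome 5 with Abcb1a and Abcb1b, the mouse P-glycoproteins that export hydrophobic drugs, and the 3 did not move together. Abcb1a had 11.03 and 11.95 RPKM with TUDCA and 13.2 RPKM in DMSO. Abcb1b had 7.36 and 7.97 RPKM with TUDCA and 8.38 RPKM in DMSO. Both P-glycoprotein genes thus lay below DMSO in both libraries, without a call (log2 differences of -0.19 and -0.11, limma adjusted p = 0.919 and 0.965). Of the stretches of 50 bases in Abcb1a transcripts, 16.3% also occur in Abcb1b and 2.33% in Abcb4, so the split of reads between Abcb1a and Abcb1b is uncertain. For Abcb4, 1.36% of such stretches occur in Abcb1a and 0.70% in Abcb1b.

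**Figure D5:**
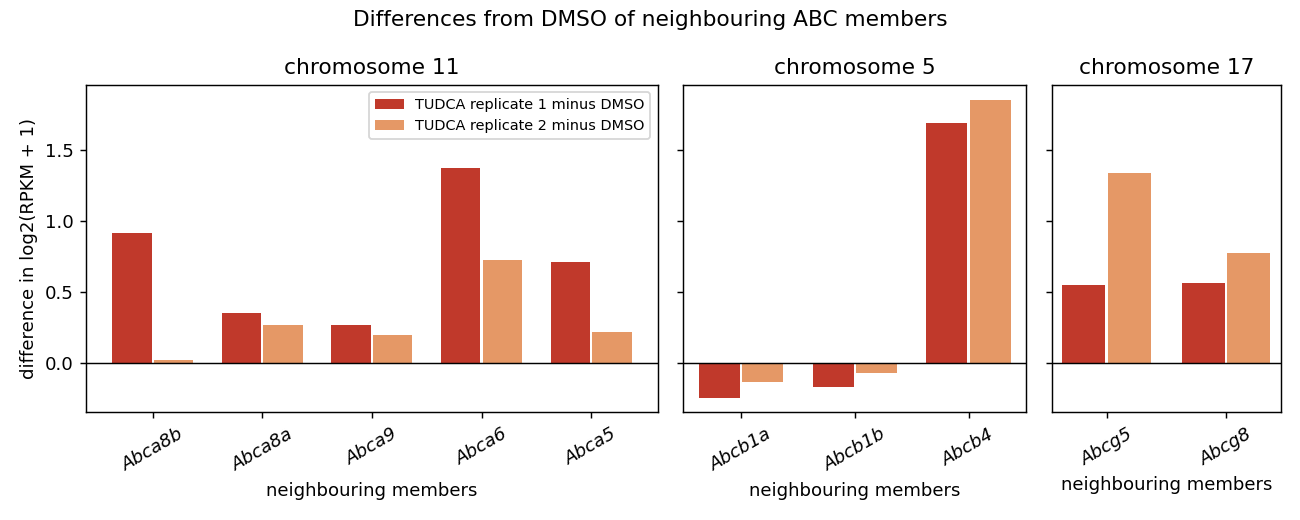
Bars give the difference in log2(RPKM + 1) of each TUDCA library from DMSO for adjacent ABC members on chromosomes 11, 5 and 17, in map order. On the RPKM scale all 5 members on chromosome 11 and both on chromosome 17 are above 0 in each library. Under quantile normalization or median centring this did not hold for Abca8b, and Abca8a and Abca9 were not checked. Abcb1a and Abcb1b are below 0 beside Abcb4 at 1.69 and 1.85.

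Among the ABCC exporters of organic anions outside the canaliculus, none of 7 tested members was called. Abcc3 (ENSMUSG00000020865), the basolateral exporter of glucuronides and bile acid conjugates, was the most abundant ABC gene of each library. It had 533.5 and 461.7 RPKM with TUDCA and 384.3 RPKM in DMSO, and both TUDCA libraries lay above DMSO. The log2 difference was 0.37 ± 0.20 (SE, limma adjusted p = 0.507). Abcc4, a basolateral exporter of bile acids and cyclic nucleotides, had 11.02 and 15.5 RPKM with TUDCA and 15.4 RPKM in DMSO, so that DMSO lay between the TUDCA libraries. Abcc5, which exports cyclic nucleotides and other anions, had 16.9 and 16.2 RPKM with TUDCA and 9.96 RPKM in DMSO. The TUDCA libraries of Abcc5 were close to each other and both above DMSO. Its log2 difference of 0.68 ± 0.26 (SE) did not pass (limma adjusted p = 0.192). That SE comes from the spread pooled over genes of similar level, not from the libraries of Abcc5 alone. Abcc1, the glutathione conjugate exporter of many cell types, had 15.5 and 19.1 RPKM with TUDCA and 19.2 RPKM in DMSO (limma adjusted p = 0.940). The sulphonylurea receptors Abcc8 and Abcc9, subunits of potassium channels, were below the minimum. Abcc9 had 0.131 and 0.0906 RPKM with TUDCA and 0.356 RPKM in DMSO.

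None of the ABCB and ABCD genes of mitochondria, peroxisomes and lysosomes was called. Abcb6, a porphyrin transporter, was nearly level, at 32.7 and 33.1 RPKM with TUDCA and 31.2 RPKM in DMSO (limma adjusted p = 0.978). Annotation places Gm29253, a transcript of the same strand, over its exons, and 50.01% of its 50-base stretches occur there too. Abcb8, of the mitochondrial inner membrane, had 14.4 and 18.4 RPKM with TUDCA and 17.4 RPKM in DMSO, and DMSO lay between the TUDCA libraries. Abcb10, tied to haem synthesis, had 6.88 and 5.09 RPKM with TUDCA and 6.25 RPKM in DMSO. DMSO lay between the TUDCA libraries, and the log2 difference was -0.07 (limma adjusted p = 0.985).

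Abcd3, a peroxisomal transporter of long and branched fatty acids and of bile acid precursors, had 78.7 and 58.7 RPKM with TUDCA and 48.1 RPKM in DMSO. Both TUDCA libraries were above DMSO but did not pass (log2 difference 0.49 ± 0.22 (SE), limma adjusted p = 0.339). Abcd4, needed to release cobalamin from lysosomes, had the lowest log2 difference of the family, -0.41 ± 0.27 (SE, limma adjusted p = 0.669). Its level was 10.1 and 10.5 RPKM with TUDCA and 14.0 RPKM in DMSO. Abcd2, a peroxisomal transporter of very long chain fatty acids, was below the minimum for testing. It had 0.862 and 0.357 RPKM with TUDCA, from at least 29 and 13 reads, and 0.0808 RPKM in DMSO, from at least 3 reads.

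The soluble members were among the most abundant, and none of the 4 was called. Abcf1, a factor of translation initiation, had 237.6 and 243.6 RPKM with TUDCA and 270.1 RPKM in DMSO. Abcf2 had 50.1 and 64.0 RPKM with TUDCA and 68.2 RPKM in DMSO. Both genes were below DMSO in both libraries, with log2 differences of -0.17 ± 0.20 and -0.26 ± 0.22 (SE, limma adjusted p = 0.886 and 0.786). Abcf3 had 72.6 and 78.5 RPKM with TUDCA and 71.5 RPKM in DMSO, and its log2 difference was 0.08 (limma adjusted p = 0.971). Abce1, which splits ribosomes for recycling, had 27.4 and 18.2 RPKM with TUDCA and 22.8 RPKM in DMSO, with DMSO between the TUDCA libraries (limma adjusted p = 0.995).

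Of the remaining ABCG genes only Abcg1, which passes cholesterol to high-density lipoprotein, was tested. It had 4.10 and 2.34 RPKM with TUDCA and 3.00 RPKM in DMSO, so DMSO lay between the TUDCA libraries (log2 difference 0.04 ± 0.31 (SE), limma adjusted p = 0.992). Abcg3 and Abcg4 stayed at or below 0.173 RPKM in all libraries. The family therefore ranged from -0.41 to 1.77 in its tested members on the log2 scale.

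Beside these values, 5 of 14 tested nuclear receptors and other regulators known to act on ABC genes were called higher with TUDCA and none lower (Nr1h4, Nr0b2, Nr1i2, Hnf4a and Nfe2l2), where 1.77% of all genes were called higher and 0.876% lower. The list was drawn up with earlier results of these data known, and its count is a description. Their median log2 difference was 0.49. The bile acid receptor Nr1h4 had 17.9 and 11.99 RPKM with TUDCA and 6.26 RPKM in DMSO, and its target Nr0b2 had 5.43 and 22.8 RPKM with TUDCA and 1.15 RPKM in DMSO. Nr1i2, the xenobiotic receptor, had 16.3 and 24.6 RPKM with TUDCA and 5.09 RPKM in DMSO, and Nfe2l2, the antioxidant factor, had 140.3 and 148.7 RPKM with TUDCA and 80.4 RPKM in DMSO. Hnf4a, a hepatocyte factor that many transporter genes depend on, had 198.6 and 191.2 RPKM with TUDCA and 115.0 RPKM in DMSO (log2 difference 0.76, limma adjusted p = 0.0123). Nr1h2 and Nr1h3, the sterol receptors known to induce Abca1, Abcg5 and Abcg8, were not called. Nr1h3 had 54.3 and 52.5 RPKM with TUDCA and 44.9 RPKM in DMSO, and Nr1h2 had 81.3 and 97.4 RPKM with TUDCA and 109.6 RPKM in DMSO. The part of any regulator in the ABC values was not tested.

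Markers of other liver cells were mixed. Of 7 cholangiocyte markers 4 were tested, and Spp1 was called higher, where 1.77% of all genes were. It had 767.5 and 578.2 RPKM with TUDCA and 387.5 RPKM in DMSO. The other 3 tested were not called, Krt7 and Epcam were under 0.4 RPKM in every library and Cftr was at 0. The 7 sinusoidal endothelial markers summed to 4.36 and 3.81 RPKM with TUDCA and 2.80 RPKM in DMSO, and the 8 stellate cell markers to 12.3 and 10.8 RPKM with TUDCA and 13.8 RPKM in DMSO. Of these last sets only 2 endothelial and 5 stellate cell markers passed the minimum for testing, and none was called. The part of such cells in the ABC values was not tested.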

How the data were processed

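The authors deposited 1 table of RPKM values per library, each listing 37620 Ensembl identifiers. Named tools, per the submitters' processing notes, are HTSeq, Bowtie2, TopHat2 2.0.7 and CASAVA, with no role or order. No source used here gives build, annotation or strand setting, and antisense reads cannot be told apart. Symbols came from GENCODE M21, which matched 32897 identifiers. Members and lists were chosen with earlier results of these data known. Named members are the canalicular ones, those called in any fit and the 3 highest of each subfamily; others are given as examples after their values were seen. Of the tested members, 2 are not reported by name here and stay in the counts.

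The tested genes averaged 1 RPKM or more and were compared on log2(RPKM + 1) with limma 3.58.1 in R 4.3.3 (trend, Benjamini-Hochberg, threshold 0.05), which gave infinite prior degrees of freedom. The fit was tested on simulated data. Whole reads were recovered for all 19146 genes above 0 within 1e-09 reads, at whole library totals read from the commonest ratios between libraries. Alternatives changed the pseudocount, minimum, scaling, variance model or libraries, used voom on whole reads, or corrected GC content and length. The whole reads are minima, so the voom fit rests on counts that may be too low for some genes. Counts by scaling and values without Abcb4, Abcc2, Abcc3 or Abcg5 were added after seeing the data. In 2 lists, 1 entry each matched no identifier.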

Additional observations from a re-analysis of the deposited data

How the results depend on the processing

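No paired analysis was possible because there is 1 DMSO library, so the groups share fewer than 2 replicate numbers. Of the called members, Abcb4 was called in 11 of 12 fits, Abca6 in 9 and Abca1 in 6, always with a positive log2 difference. Without a minimum the number of ABC members called higher was 0 and that of all genes 0 in place of 299, and at 0.3 RPKM they were 1 and 26. No fit called a member lower. The canalicular median of 0.63 was 0.75 with a pseudocount of 0.1, 0.76 with voom, 0.66 rescaled to TPM, 0.60 with quantile normalization, 0.55 with median centring, 0.60 after GC and length correction, 0.58 at 5 RPKM (3 members left) and 0.56 to 0.58 with 1 TUDCA library left out. The median of the other members, 0.05, was -0.053 with quantile normalization, -0.029 with median centring and 0.053 to 0.19 with 1 library left out. With 1 TUDCA library left out, more members than Abcb4 differed by at least 1 on the log2 scale. No share over all genes is given for a single library, so this is no result about the family. The Abcb4 difference was 1.69 from replicate 1 alone and 1.85 from replicate 2 alone. Among the named members, some uncalled differences near 0 changed sign. With median centring they were those of Abcb6 (-0.0010), Abcg1 (-0.031) and Abcg2 (-0.0016). Quantile normalization turned that of Abcg1 (-0.088), and the GC and length correction that of Abcg2 (-0.051). Over all 35 tested members, the number above 0 was 23 on the RPKM scale. It was 18 with median centring and 20 with quantile normalization. The cause of these shifts was not tested. The read numbers are minima; with the exon length of GENCODE M21 the DMSO value of Abcg5 would be about 28.7 reads.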

Other observations

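The ABC proteins under other symbols did not pass the test. Tap1 and Tap2, the partners of the peptide transporter of antigen presentation, had 67.6 and 78.8 RPKM, and 50.1 and 61.7 RPKM, with TUDCA, against 66.2 and 60.7 RPKM in DMSO (limma adjusted p = 0.928 and 0.942). Cftr, the chloride channel of bile duct cells, was listed at 0 in each library.

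In 5 lists of genes that work beside ABC transporters, 1 of 62 tested genes was called higher (1.61%) and none lower, beside 1.77% and 0.876% of all genes. Of 16 canalicular membrane partners, such as the flippase Atp8b1 (4.25 and 3.07 RPKM with TUDCA and 2.57 RPKM in DMSO), none was called (median log2 difference 0.21). Of 12 tested genes of sterol acceptors and sterol control, none was called (median -0.11). Apoa1, the acceptor of Abca1, had 2096 and 2135 RPKM with TUDCA and 2312 RPKM in DMSO. Of 12 peroxisomal partners of ABCD proteins, the thiolase Acaa1b was called higher, at 21.6 and 23.8 RPKM with TUDCA and 7.36 RPKM in DMSO (limma adjusted p = 1.68e-06), and 11 were not called. None of 14 haem and iron-sulphur genes and none of 8 tested ribosome recycling genes was called, with medians of -0.03 and -0.10.

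Across the 35 tested members, the log2 difference had a Spearman correlation of -0.22 with GC content and 0.21 with exon length, beside -0.21 and 0.14 over 11149 genes. The genes share the same 3 libraries, and these values are descriptions.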
